A study of Mus musculus with 2 samples.

Results

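Starburst amacrine cells were examined as the nuclei that the authors annotated as amacrine and placed in cluster 13, in single-nucleus RNA-seq of the whole mouse retina at postnatal day 21. This definition gave 194 of 14123 nuclei, 72 of 403 amacrine nuclei in the Cre- library and 122 of 1043 in the Tet tcKO library. Every nucleus of cluster 13 carried the amacrine name. Animals of both groups were labelled as strain C57 BL/6J. Tet tcKO animals, the mutants, carried loxp alleles of Tet1, Tet2 and Tet3, each on both chromosomes, together with the Chx10-Cre-GFP transgene, which is active in retinal progenitor cells and is known to be mosaic, so Cre carriers were bred to each other. Cre- controls of the same age came from Cre- breeders and were labelled as wild type, and the Tet alleles that they carried are not given in the sources used here. Each library combined 2 dissociations of pooled retinas that cannot be separated by nucleus, so each genotype was 1 sample and no test between genotypes was made.

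Starburst amacrine cells are the cholinergic interneurons of the retina. They release both acetylcholine and GABA, they drive the spontaneous waves of the developing retina, and their inhibition of direction-selective ganglion cells is known to give those cells their preference for one direction of motion. They occur as OFF cells in the inner nuclear layer and ON cells displaced to the ganglion cell layer, and their dendrites form a regular mosaic through contact proteins such as MEGF10 and MEGF11. The TET enzymes oxidize methylated cytosine in DNA, the first step of active demethylation.

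Starburst nuclei of the Cre- library held 116227 UMIs in all, with a median of 1236 UMIs per nucleus (range 636 to 7361), and those of the Tet tcKO library held 258082, with a median of 1701.5 (720 to 8128). The median mitochondrial percent given by the authors was 5.76% and 4.06%. Levels below are UMIs summed over the nuclei of a group and scaled to counts per 1000000 (CPM). Brackets give exact 95% counting intervals, which leave out variation between animals and between preparations. Those of levels and ratios treat each UMI as independent, so they leave out variation between nuclei as well. The libraries shared 1 barcode, and it was not that of a starburst nucleus.

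The cholinergic identity of the cluster was clear in both genotypes. Chat, the enzyme that makes acetylcholine (chr14:32129369-32187946 of GRCm39), reached 318 CPM (224 to 439) in starburst nuclei of Cre- and 395 CPM (322 to 480) in those of Tet tcKO. Slc5a7, the high-affinity choline transporter, stood at 181 CPM (112 to 276) and 422 CPM (347 to 509). Both were near 0 in the remaining amacrine nuclei, where Chat gave 6.78 and 3.36 CPM and Slc5a7 gave 0 of 442331 UMIs and 8.64 CPM. The next highest Chat level in any annotated cluster of at least 20 nuclei was 19.7 CPM in rod cluster 40 of Cre- and 30.6 CPM in bipolar cluster 39 of Tet tcKO. All 5 marker genes, Chat, Slc5a7, Megf11, Sox2ot and Prima1, led the cluster when genes were ranked by fold over all other nuclei, and no marker of another class was among its 10 leading genes. A UMI of at least 1 marker was found in 71 of 72 and 121 of 122 nuclei. The ranks and counts of the markers are descriptions, since the clusters were made from the same genes. The markers were also chosen with earlier results of these data known.

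**Figure D1:**
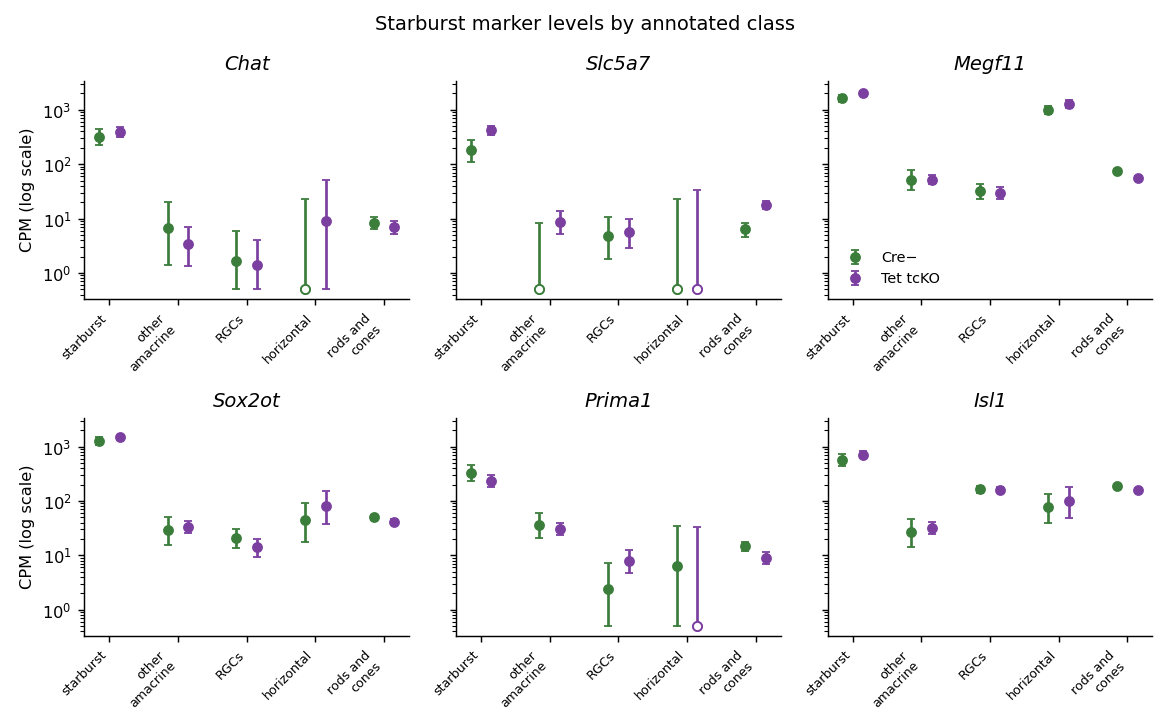
Levels of 6 genes in 5 annotated classes, in CPM on a log scale, for the Cre- library (green) and the Tet tcKO library (purple), with 95% counting intervals. Open points at the base of the axis are classes with no UMI of the gene. Chat and Slc5a7 stood at 181 to 422 CPM in starburst nuclei, and Megf11 was also high in horizontal cells.

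The other markers reached beyond the transmitter. Megf11, a receptor through which starburst cells repel their own kind, stood at 1626 and 2046 CPM in starburst nuclei and 52.0 and 51.8 CPM in other amacrine nuclei. It was not limited to them, since horizontal cells carried 998 and 1288 CPM. Sox2ot, the long non-coding RNA that overlaps the transcription factor gene Sox2 on the same strand, stood at 1265 and 1492 CPM against 29.4 and 33.1 CPM. Prima1, the membrane anchor of acetylcholinesterase, gave 327 and 236 CPM. Isl1, a LIM-homeodomain factor used by starburst, bipolar and ganglion cells, stood at 576 and 713 CPM against 27.1 and 31.7 CPM.

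Of 1597 genes at 100 CPM or more in starburst nuclei of both libraries, 23 stood 8-fold or more above other amacrine nuclei in Cre- (1.44% of those genes) and 21 in Tet tcKO (1.31%). These are descriptions, since the clusters were made from the same genes. The 15 genes farthest above other amacrine nuclei were Chat, Sox2ot, Megf11, Slc5a7 and Isl1, followed by Etl4, Myo5b, Cmtm8, Gng7, Adamts18, Tgfb3, Pappa, Colgalt2, Abcc8 and Dok5. Each of the 15 was at its highest in starburst nuclei among 7 annotated classes in both libraries. Etl4 reached 2788 and 4886 CPM, 15.0-fold and 14.4-fold above other amacrine nuclei. Gng7, a G protein gamma subunit, was 26.2-fold above them in Cre- and 11.6-fold in Tet tcKO. Pappa, a protease that frees insulin-like growth factors from their binding proteins, was 10.5-fold and 13-fold above. Dok5, an adaptor of receptor tyrosine kinases, was 7.99-fold and 8.26-fold above.

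How many starburst nuclei a retina held could not be read in 1 direction. They made up 17.9% (14.2 to 22.0) of amacrine nuclei in Cre- and 11.7% (9.81 to 13.8) in Tet tcKO. Of all nuclei, in contrast, they made up 0.979% (0.767 to 1.23) and 1.80% (1.5 to 2.15). Among nuclei annotated neither rod nor cone the shares were 3.83% (3.01 to 4.80) and 3.45% (2.87 to 4.11). The order of the genotypes thus turned with the denominator, and the intervals overlapped where photoreceptors were left out. The remaining amacrine nuclei also sat in different clusters, 256 of 331 in cluster 27 in Cre-, and 357 of 921 in cluster 12 with 321 in cluster 24 in Tet tcKO.

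Cholinergic genes were detected in starburst nuclei of both genotypes, though not all of them. Of 8 genes for making, loading, breaking down and taking up acetylcholine or choline, 3 averaged 100 CPM or more over the libraries, of which 1 was past 2-fold. Among all 2000 genes at that level, 142 were 2-fold or more higher in Tet tcKO (7.1%) and 186 were 2-fold or more lower (9.3%), and the median log2 ratio of Tet tcKO over Cre- was -0.06. Slc5a7 was 2.34-fold higher, with 21 UMIs against 109 and a log2 ratio of 1.22 (0.54 to 1.97). Over all nuclei of the libraries its ratio was 1.46, and other amacrine nuclei had 0 and 18 UMIs. Chat differed by 0.31 on the log2 scale (-0.24 to 0.90) and Prima1 by -0.47 (-1.08 to 0.16), and both intervals included 0. With each nucleus thinned to 500 UMIs, Chat was detected in 16.7% (8.92 to 27.3) and 18.9% (12.3 to 26.9) of starburst nuclei, and before thinning in 36.1% and 46.7%. In rods and cones, which lack the gene, the thinned shares were 0.475% and 0.340%, at median depths of 1046 and 1714 UMIs. Slc5a7 had thinned shares of 11.1% (4.92 to 20.7) and 18.9% (12.3 to 26.9) in starburst nuclei, with overlapping intervals. Slc44a1, a choline transporter-like protein, had 3 UMIs in the control library and 32 in the mutant one, with a log2 ratio of 2.26 (0.59 to 4.62). It averaged below 100 CPM. Its thinned shares were 2.78% (0.338 to 9.68) and 4.10% (1.34 to 9.31), with overlapping intervals. Slc18a3, the vesicular acetylcholine transporter whose gene lies inside Chat on the same strand, gave 0 and 2 UMIs, and Colq and Bche gave none, so nothing could be read for these 3 genes at this depth.

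GABA synthesis showed no difference past 2-fold. Gad1, which makes GABA, gave 310 and 267 CPM, with a log2 ratio of -0.21 (-0.81 to 0.41). Gad2 was sparse in starburst nuclei, with 2 UMIs of 116227 and 7 of 258082, that is 17.2 and 27.1 CPM, while other amacrine nuclei stood at 83.6 and 134 CPM. Starburst nuclei therefore carried Gad1 without much Gad2 in both libraries.

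A list of 13 regulators of the starburst and amacrine lineage, mostly transcription factors, held 8 genes that averaged 100 CPM or more. Of these 8, 1 was higher and 1 lower, where 16.4% of all tested genes lay past 2-fold either way. Isl1 differed by 0.31 on the log2 scale (-0.10 to 0.73), Pax6 by 0.20 (-0.17 to 0.59) and Six3 by -0.01 (-0.93 to 0.97). Tfap2b, an amacrine AP-2 factor, was 2.13-fold higher in Tet tcKO, with 49 and 232 UMIs and a log2 ratio of 1.09 (0.64 to 1.57), and in other amacrine nuclei the ratio was 0.04. Rbfox3, the neuronal splicing factor NeuN, was 2.22-fold lower, with 28 UMIs in each library and a ratio of -1.15 (-1.96 to -0.34).

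Genes that separate ON from OFF starburst cells gave unequal counts. Tenm3, an adhesion protein of OFF starburst cells, gave 499 CPM in controls and 934 CPM in mutants, and Zfhx3, an OFF factor, at 456 and 806 CPM. Their log2 ratios were 0.90 (0.49 to 1.34) and 0.82 (0.38 to 1.29), both short of 2-fold. Rnd3, a small GTPase of ON cells, gave 0 of 116227 UMIs in Cre- and 26 of 258082 in Tet tcKO. With 3 counts in place of the 0, Rnd3 was 3.90-fold higher, a value that depends on that choice and is not a lower limit. Those 26 UMIs lay in 22 of 122 nuclei, whereas 0 of 72 Cre- nuclei had any, at a median depth of 1236 UMIs, a count that does not show how many nuclei express the gene. Of the 22 nuclei, 16 also had a UMI of Tenm3 and 19 had one of Zfhx3, beside 85 and 82 of all 122 Tet tcKO starburst nuclei. Fezf1, the factor that sets the ON type, gave 1 and 0 UMIs, so the nuclei were not divided into ON and OFF.

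Genes for mosaic spacing and dendritic arbors had a median above that of all tested genes. Of 14 listed, 13 averaged 100 CPM or more, with a median log2 ratio of 0.39 against -0.06 over all tested genes, and 0.29 for the same genes in other amacrine nuclei. Plxna2, a semaphorin receptor that acts with Sema6a in placing starburst dendrites, was 2.73-fold higher, with 55 and 333 UMIs and a ratio of 1.45 (1.03 to 1.89). Dscaml1, which spaces cells and neurites, was 2.07-fold lower, with a ratio of -1.05 (-1.60 to -0.51), while Dscam was at 0.93 (0.30 to 1.61). Megf11 differed by 0.33 (0.09 to 0.58). Slit2 stood at 0.88 (0.44 to 1.34), Sema6a at 0.57 (-0.16 to 1.34) and Cntn5 at 0.58 (0.30 to 0.88), all within 2-fold. Longer genes had higher median ratios, as described below, and the part of length in this list was not tested.

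The 3 genes with the highest ratios of Tet tcKO over Cre- were Ptprt, Pcdh17 and Cntnap5a, all coding for proteins of cell contact. Ptprt, a receptor-type tyrosine phosphatase that binds its own kind between cells, had 5 UMIs in control nuclei against 357 in Tet tcKO nuclei, that is 43.0 and 1383 CPM with a log2 ratio of 5.01 (3.77 to 6.64). Cntnap5a, a neurexin-related adhesion protein, had 8 and 453 UMIs, that is 68.8 and 1755 CPM and a ratio of 4.67 (3.68 to 5.89). Pcdh17, a delta-protocadherin of neuronal contacts, had 1 UMI and 62 UMIs and a ratio of 4.80 (2.27 to 10.1). In other amacrine nuclei Ptprt, Cntnap5a and Pcdh17 had ratios of 0.81 (0.54 to 1.10), 1.12 (0.87 to 1.39) and 0.82 (0.27 to 1.41). The intervals of starburst and other amacrine nuclei did not overlap, a contrast that the choice of these genes by their starburst ratio favors. Other amacrine nuclei also sat in different clusters in the libraries, and the part of this in their ratios was not tested. The remaining 9 of the 12 highest were Trhde at 3.37 (1.97 to 5.28), Slc44a5 at 3.36 (1.95 to 5.26), Rbms3 at 3.10 (2.30 to 4.03), Cntnap5b at 2.75 (2.09 to 3.48), Fbn2 at 2.71, Unc5c at 2.60 (1.68 to 3.70), Ptprj at 2.36, Arhgap18 at 2.31 and Snx29 at 2.24. Among them Slc44a5 is a choline transporter-like protein, Trhde degrades thyrotropin-releasing hormone, Unc5c is a netrin receptor, Fbn2 forms microfibrils and Rbms3 binds RNA. The same 9 genes ranged from -0.14 to 1.38 in other amacrine nuclei.

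**Figure D2:**
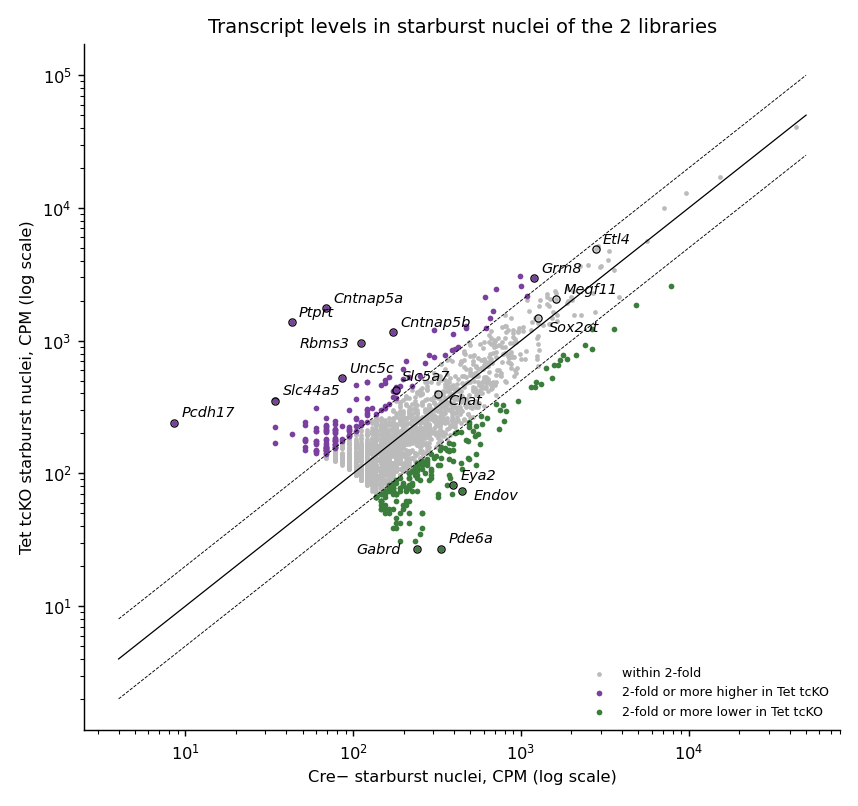
Each point is 1 of the 2000 genes that averaged 100 CPM or more, placed by its CPM in Cre- starburst nuclei (x axis, log scale) and in Tet tcKO starburst nuclei (y axis, log scale). The solid line marks equal levels and the dashed lines 2-fold, with 142 genes above in purple and 186 below in green. Cntnap5a, Ptprt and Pcdh17 lie far above the band, and the markers Chat, Megf11 and Sox2ot lie within it. The marker Slc5a7 lies above the band, at a log2 ratio of 1.22.

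The place of these 12 genes among annotated classes differed between the libraries, in a direction that their choice by ratio favors. Cre- starburst nuclei had the lowest level of 7 annotated classes for 5 of the 12 genes, Ptprt, Pcdh17, Cntnap5a, Rbms3 and Snx29. Tet tcKO starburst nuclei had the highest level of the 7 for 10 of the 12, all but Rbms3 and Unc5c. Cntnap5b was highest in starburst nuclei of both libraries, though in Cre- it was level with other amacrine nuclei, at 172.1 and 171.8 CPM. Slc44a5 and Fbn2, with 4 UMIs each in Cre- starburst nuclei, stood 1.27-fold and 3.04-fold above other amacrine nuclei there. The log2 intervals of these values, -1.75 to 2.07 and -0.73 to 3.82, included 0. Ptprt, for example, was 6.31-fold below other amacrine nuclei in Cre- and 2.90-fold above them in Tet tcKO. Cntnap5a was 4.43-fold below and 2.64-fold above. In rods and cones Cntnap5a stood at 162 and 327 CPM and Ptprt at 134 and 174 CPM, so the Tet tcKO starburst levels were above those of the most numerous nuclei.

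For Cntnap5a, Ptprt and Slc44a5 the difference was spread over many nuclei. With each nucleus thinned to 500 UMIs, Cntnap5a was detected in 0 of 72 Cre- starburst nuclei (a share with a UMI of up to 4.99%) and in 63 of 122 Tet tcKO nuclei, 51.6% (42.4 to 60.8). Without thinning the counts were 7 of 72 and 99 of 122. Other amacrine nuclei had thinned shares of 10.9% and 21.4%, and rods and cones of 7.5% and 15.5%. For Ptprt the thinned shares were 2.78% (0.338 to 9.68) and 36.9% (28.3 to 46.1) in starburst nuclei, and for Slc44a5 they were 1.39% and 17.2%. For Fbn2 and Arhgap18 the thinned shares were 2.78% in Cre- and 4.92% and 4.10% in Tet tcKO, with overlapping intervals. Of the 5 highest genes, at least 2 were detected together in 97 of 122 Tet tcKO starburst nuclei and 2 of 72 Cre- nuclei, and after thinning in 47 and 0. Ptprt and Cntnap5a were found in the same nucleus in 74 of 122 and in 1 of 72. No Cre- nucleus had more than 3 of the 5 genes, while 23 Tet tcKO nuclei had 4 and 11 had all 5. The 5 genes were chosen by their ratios in these same nuclei, which favors these contrasts, and nuclei are not replicates.

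**Figure D3:**
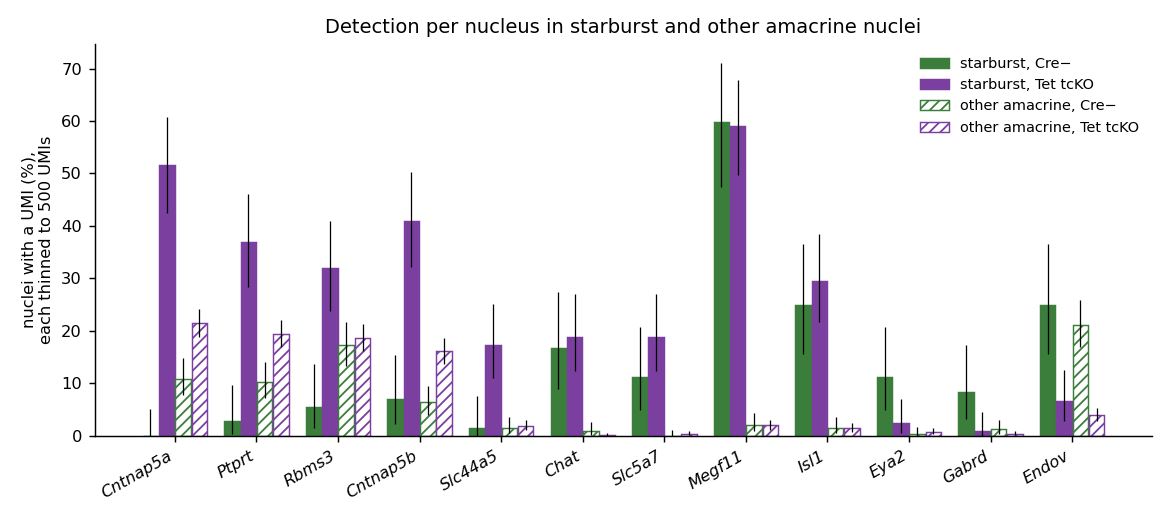
Percent of nuclei with a UMI of 12 genes after each nucleus was thinned to 500 UMIs, in starburst (filled bars) and other amacrine nuclei (hatched bars) of the Cre- (green) and Tet tcKO (purple) libraries, with 95% Clopper-Pearson intervals. Cntnap5a was found in 0 of 72 Cre- and 63 of 122 Tet tcKO starburst nuclei, and the marker Chat in 16.7% and 18.9%.

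Among the 12 genes farthest in the other direction were Eya2 and Gabrd, which stood highest in starburst nuclei. Eya2, a transcriptional co-activator and phosphatase, had 46 UMIs in Cre- starburst nuclei and 21 in mutant ones, that is 396 and 81.4 CPM with a log2 ratio of -2.28 (-3.10 to -1.51). It was at its highest in starburst nuclei among 7 classes in both libraries, the next in Cre- being horizontal cells at 44.2 CPM. Nuclei with a UMI numbered 27 of 72 and 15 of 122. In other amacrine nuclei Eya2 stood at 13.6 and 27.3 CPM, a ratio of 1.01 (-0.20 to 2.52). Gabrd, the delta subunit of extrasynaptic GABA-A receptors, had 28 and 7 UMIs, that is 241 and 27.1 CPM and a ratio of -3.15 (-4.59 to -1.92), with 21 of 72 and 5 of 122 nuclei. Gabrd too was highest in starburst nuclei of both libraries, though in Tet tcKO this rank rested on 7 UMIs, with an interval of 10.9 to 55.9 CPM. Its ratio in other amacrine nuclei was -2.15 (-3.22 to -1.07). Gng7, a starburst-enriched gene named above, was 2.81-fold lower in Tet tcKO, with 62 and 49 UMIs and a ratio of -1.49 (-2.06 to -0.93).

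The promoters of 3 genes that were higher and 1 that was lower are shown because the deleted enzymes act on methylated cytosines that precede a guanine. Each is the reference sequence of GRCm39 from 250 bases before to 50 bases from the start of the Ensembl canonical transcript in GENCODE vM39, on the strand of the gene, with CG dinucleotides in capitals. They lie at chr2:162503018-162503317 on the minus strand for Ptprt, chr1:115612236-115612535 on the plus strand for Cntnap5a, chr3:153678788-153679087 on the plus strand for Slc44a5 and chr2:165436702-165437001 on the plus strand for Eya2.
Ptprt: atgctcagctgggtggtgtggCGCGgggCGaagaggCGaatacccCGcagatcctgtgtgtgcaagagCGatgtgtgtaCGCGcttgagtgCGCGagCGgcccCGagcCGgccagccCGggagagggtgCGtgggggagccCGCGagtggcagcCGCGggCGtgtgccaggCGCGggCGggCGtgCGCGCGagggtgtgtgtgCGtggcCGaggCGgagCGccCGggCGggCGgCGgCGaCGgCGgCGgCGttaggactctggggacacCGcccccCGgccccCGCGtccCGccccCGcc
Cntnap5a: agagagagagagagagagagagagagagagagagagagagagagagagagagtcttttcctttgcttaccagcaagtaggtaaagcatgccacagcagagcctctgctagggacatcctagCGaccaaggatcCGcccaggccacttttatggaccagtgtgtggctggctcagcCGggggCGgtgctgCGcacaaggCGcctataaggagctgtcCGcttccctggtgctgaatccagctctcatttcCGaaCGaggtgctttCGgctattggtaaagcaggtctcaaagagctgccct
Slc44a5: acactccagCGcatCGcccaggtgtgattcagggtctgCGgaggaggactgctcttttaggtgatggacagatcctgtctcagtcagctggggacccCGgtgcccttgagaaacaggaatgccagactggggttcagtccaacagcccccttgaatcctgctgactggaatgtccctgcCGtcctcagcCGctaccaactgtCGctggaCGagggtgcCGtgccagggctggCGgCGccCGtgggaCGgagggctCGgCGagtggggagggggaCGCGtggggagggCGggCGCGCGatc
Eya2: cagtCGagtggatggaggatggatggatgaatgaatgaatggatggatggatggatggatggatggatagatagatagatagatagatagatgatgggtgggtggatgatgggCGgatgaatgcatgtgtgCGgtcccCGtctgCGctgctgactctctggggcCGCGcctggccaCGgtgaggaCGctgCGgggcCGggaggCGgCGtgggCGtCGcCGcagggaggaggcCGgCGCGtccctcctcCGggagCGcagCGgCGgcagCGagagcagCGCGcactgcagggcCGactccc
The Ptprt promoter holds 46 CG dinucleotides, a number reached by 0.946% of 21770 protein-coding promoters of the same length, and the Cntnap5a promoter holds 10, close to the median of 11. Those of Slc44a5 and Eya2 hold 21 and 27. The 12 highest genes had a median of 20.5 and the 11 lowest genes with such a promoter a median of 7. Over all genes past 2-fold the medians were nearer, 17 for 140 higher and 15 for 178 lower genes, against 19 for promoters of the tested genes, and 5.05% of all promoters hold no CG. The letters do not say whether a cytosine is methylated, and methylation was not analysed here.

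Genes known from rods made up much of the rest of the 12 lowest. Pde6a, the alpha subunit of the rod phosphodiesterase, had 39 and 7 UMIs in starburst nuclei and a log2 ratio of -3.63 (-5.03 to -2.45). Pde6g was at -2.61 (-3.99 to -1.39), Cnga1, a subunit of the rod cyclic nucleotide-gated channel, at -2.47 (-3.35 to -1.66) and Slc24a1, the rod sodium, calcium and potassium exchanger, at -2.36 (-3.42 to -1.37). All 10 genes of a fixed rod list were detected in both libraries. Of these, 6 of the 6 that averaged 100 CPM or more were 2-fold or more lower, against 9.3% of all tested genes. The summed level of all 10 in starburst nuclei was 3579 CPM in controls and 1027 CPM in mutants. In other amacrine nuclei it was 2788 and 1253 CPM. Only 3 of 72 and 25 of 122 starburst nuclei had no UMI of the rod list. Rod RNA thus moved with genotype in nuclei that were not annotated as rods, and its part in the starburst ratios was not tested. Of the 12 lowest genes, 8 stood higher in rods and cones than in starburst nuclei in Cre-, the exceptions being Gabrd, Eya2, Camkv and Col7a1.

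The last of the 12 lowest genes were Endov, an inosine-cleaving endonuclease, at -2.60 (-3.44 to -1.82), Syne2, a protein linking nucleus and cytoskeleton, at -2.36 (-3.42 to -1.37), Camkv at -2.74, Pdzph1 at -2.84, Col7a1 at -2.34 and the non-coding Gm20754 at -2.91 (-4.25 to -1.73). Endov stood at 63.0 to 121 CPM over 7 annotated classes of Tet tcKO and at 360 to 504 CPM over those of Cre-, with a ratio of -2.42 (-2.72 to -2.13) in other amacrine nuclei. Syne2 and Gm20754 had ratios of -0.11 and -0.13 in other amacrine nuclei, whose intervals included 0.

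**Figure D4:**
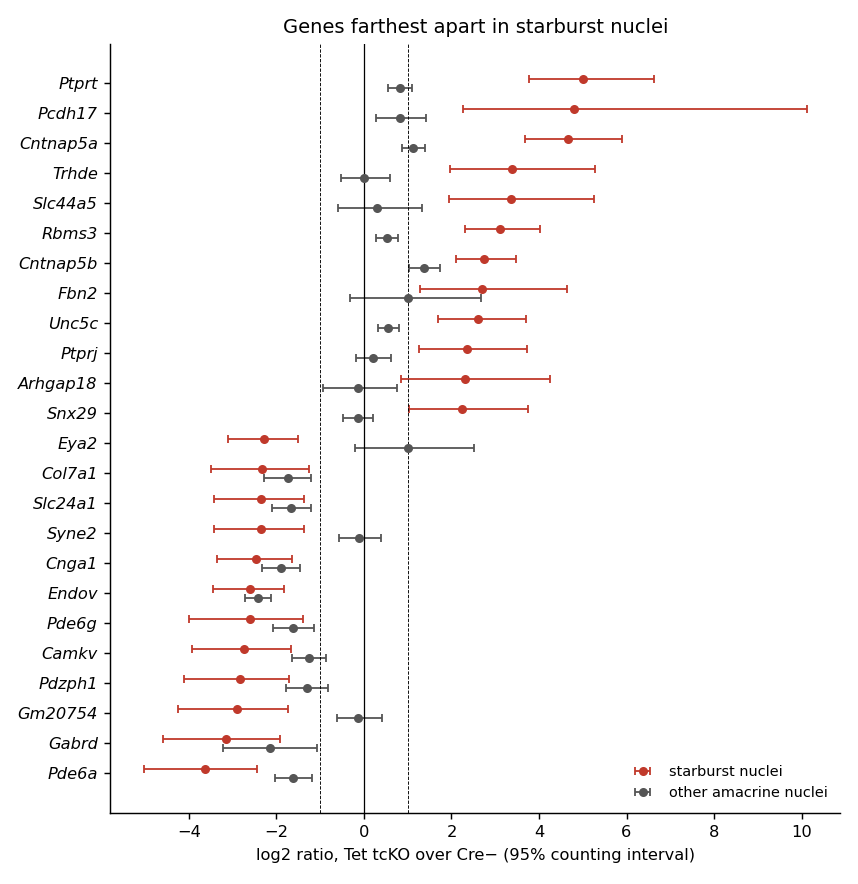
Log2 ratios of Tet tcKO over Cre- for the 12 genes highest and the 12 lowest in starburst nuclei (red), beside the ratio of the same gene in other amacrine nuclei (grey), with 95% counting intervals and dashed lines at 2-fold. The genes were chosen by the red values. Ptprt stands at 5.01 in starburst and 0.81 in other amacrine nuclei, and Eya2 at -2.28 and 1.01.

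More genes lay past 2-fold in starburst nuclei than in other amacrine nuclei, where 42 of 1987 were higher (2.11%) and 51 lower (2.57%), or 4.68% either way against 16.4% in starburst nuclei. Other amacrine nuclei held 442331 and 2084316 UMIs, so their ratios carried less counting error. Counting only genes whose whole interval lay past 2-fold, starburst nuclei had 24 higher and 42 lower, and other amacrine nuclei 12 and 25. The test of this difference could not be made with 1 library per genotype.

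Of 12 calcium and sodium channel genes tested, 1 was higher and 3 lower, against 7.1% and 9.3% of all tested genes. Cacna1c, the L-type channel Cav1.2, was 3.06-fold higher, with 14 and 95 UMIs and a ratio of 1.61 (0.80 to 2.54). Scn1a and Scn2a, voltage-gated sodium channels, were at -1.43 (-2.56 to -0.32) and -1.40 (-2.31 to -0.51), and the calcium channel beta subunit Cacnb2 was at -1.39 (-2.04 to -0.74). Cacna1a, the P/Q-type channel, gave -0.39 (-0.62 to -0.15) with 239 and 405 UMIs.

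Receptors for glutamate, the input that bipolar cells give to starburst cells, also had a median above that of all tested genes. Of 14 tested, 4 were 2-fold or more higher and 0 lower, against 7.1% and 9.3% of all tested genes, and their median was 0.61, beside 0.47 for the same genes in other amacrine nuclei. Grin2a, an NMDA receptor subunit, had 9 and 61 UMIs and a ratio of 1.61 (0.59 to 2.81). Grm8, a metabotropic receptor, had 139 and 759 UMIs, that is 1196 and 2941 CPM and a ratio of 1.30 (1.04 to 1.57). The kainate receptor subunit Grik2 was at 1.11 (0.65 to 1.59), and Gria3, an AMPA receptor subunit at 0.98 (0.56 to 1.42), lay just short of 2-fold. The main AMPA receptor subunit Gria2 differed by 0.07 (-0.18 to 0.34), so the difference was not shared by every receptor gene. Grm8, Grik2, Grin2a, Gria3 and Gria2 span 860, 694, 428, 278 and 122 kb. Median ratios rose with gene length, as described below, and the part of length in this list was not tested.

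Among 7 tested receptors for GABA, glycine and acetylcholine, 1 was 2-fold or more lower, Gabrd, and 1 higher, Gabrb1. Of all tested genes, 9.3% were lower and 7.1% higher by that measure. Gabrb1, a beta subunit of GABA-A receptors, had 46 and 288 UMIs and a ratio of 1.5 (1.04 to 1.98), against 0.27 in other amacrine nuclei. Chrm2, the muscarinic M2 receptor, had 20 and 31 UMIs and a ratio of -0.52 (-1.38 to 0.37).

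The machinery of vesicle release showed 1 gene past 2-fold of 13 tested, a smaller share than the 16.4% of all tested genes, and a median of 0.14. Rims1, an active zone scaffold, had 76 and 381 UMIs and a ratio of 1.17 (0.82 to 1.55), and Rims2 differed by -0.02 (-0.48 to 0.45). Syt1, the calcium sensor of fast release, stood at 3003 and 3646 CPM, a ratio of 0.28 (0.10 to 0.46).

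**Figure D5:**
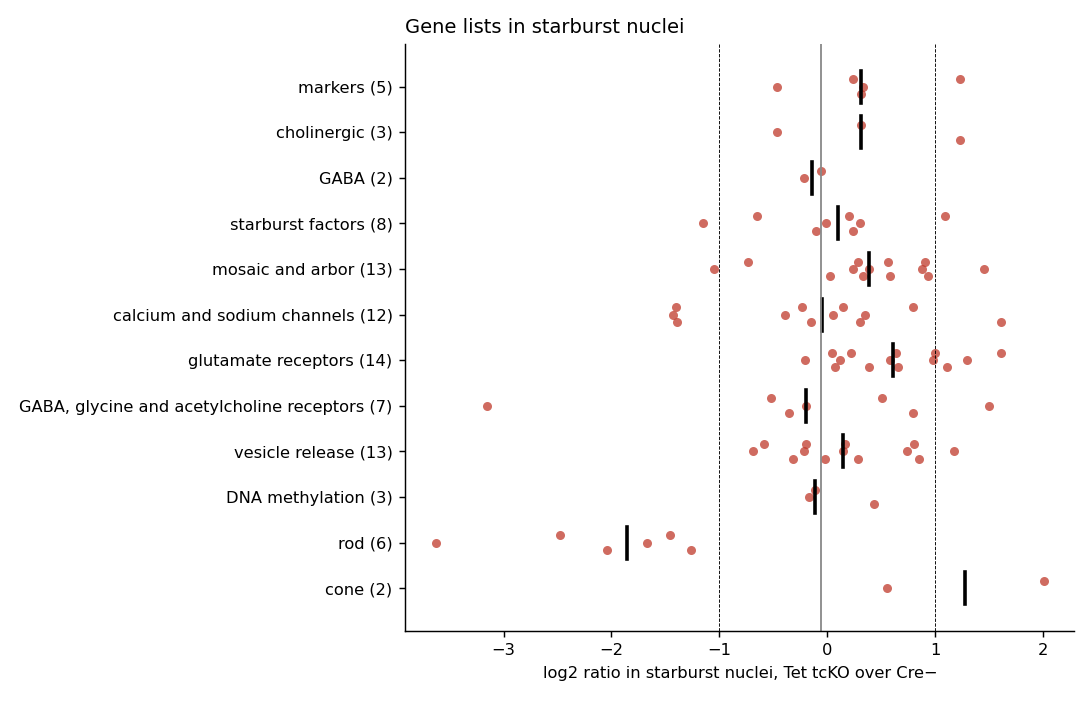
Log2 ratios of Tet tcKO over Cre- in starburst nuclei for the genes of 12 lists that averaged 100 CPM or more (number in brackets). Each point is 1 gene, the black bar is the list's median, the grey line is the median of all 2000 tested genes (-0.06), and dashed lines mark 2-fold. The 6 rod genes all lie below -1, and glutamate receptors have a median of 0.61.

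The targeted genes were sparse in starburst nuclei. Tet1 gave 14 UMIs in controls against 13 in mutants, with a log2 ratio of -1.26 (-2.47 to -0.06). Tet2 had 17 and 51 UMIs, a ratio of 0.43 (-0.38 to 1.32), and Tet3 had 18 and 37, a ratio of -0.11 (-0.96 to 0.79). Counts per gene from a 3′ kit do not separate the floxed exons, so these values do not check the deletion. Dnmt3a, a DNA methyltransferase, differed by -0.17 (-0.62 to 0.28).

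Markers of other classes were also measured in starburst nuclei. The 24 markers of other amacrine types summed to 1205 and 1383 CPM, and 2 of them averaged 100 CPM or more, Dab1 and Calb1, and 4 had no UMI in starburst nuclei. Cngb3, a cone channel subunit, had 14 and 125 UMIs and a ratio of 2.01 (1.21 to 2.92), near the 2.10 in other amacrine nuclei, and the summed cone list stood at 465 and 1058 CPM in starburst nuclei and 597 and 1546 CPM in other amacrine nuclei. The bipolar list, which holds Isl1, summed to 2099 and 1538 CPM. Of its 4 tested genes, 2 were 2-fold or more lower, against 9.3% of all tested genes. These were Trpm1 at -2.19 (-3.09 to -1.34) and Prkca at -1.08 (-1.54 to -0.63). Of the ganglion cell list no gene averaged 100 CPM, and Pou4f1, Pou4f2 and Pou4f3 had no UMI. Glul, the glutamine synthetase of Müller glia, was at -1.93 (-2.71 to -1.19) in starburst and -1.34 in other amacrine nuclei. Lhx1 and Onecut1 of the horizontal cell list had no UMI, and the lists of microglia, progenitor and immediate early genes each gave at most 26 UMIs per library. The part of these transcripts in the starburst ratios was not tested.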

How the data were processed

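Nuclei of whole retinas were captured with a 3′ PIPseq kit, and per the labels reads were processed with pipseeker (v3.3.0) and aligned to GRCm39. The authors removed ambient RNA and filtered barcodes before deposit, and the deposited values are whole-number UMI counts for each gene in each nucleus. The percent of mitochondrial transcripts was deposited by the authors, and their cell type and cluster were used as deposited. Other deposited columns, a ratio used as size factor and a signal per genotype, were not used. Results of some listed genes are not reported here. No doublet caller was run here. The members and gene lists were chosen with earlier results of these data known.

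UMIs were summed per library and scaled to CPM. Ratios carry exact conditional intervals, levels Poisson intervals and shares Clopper-Pearson intervals, all at 95%. A 0 was set to 3 counts, and genes with at most 3 counts in both libraries got no ratio. Tested genes averaged 100 CPM or more over the 2 libraries, and a difference was counted from 2-fold. Named genes were those of the lists, the 12 highest and 12 lowest ratios, and the 15 highest over other amacrine nuclei in the library where each was lower. Gene identifiers were matched to GENCODE vM39 (31681 of 32227). The sources used here do not say whether counting used strand, so values of overlapping genes such as Sox2ot and Sox2, or Ptprt and its antisense RNAs, are uncertain. Alternatives were means over nuclei, 1 count per gene and nucleus, thinning to 500 UMIs, nuclei of 1000 UMIs or more, leaving out the highest nucleus of each gene or the 5% deepest nuclei, median-of-ratios scaling, CPM minimums of 50, 200 or none, equal weights for other amacrine clusters, other denominators, and nuclei with a UMI of Chat or Slc5a7. Python 3.11.15, numpy 2.4.6, scipy 1.17.1 and pandas 2.3.3 were used, and the steps were tested on simulated data.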

Additional observations from a re-analysis of the deposited data

Results flagged for a closer look

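Dab1, the adaptor of reelin signalling and a marker of AII amacrine cells, had opposite directions in the amacrine groups. In starburst nuclei its 33 control and 200 mutant UMIs gave a log2 ratio of 1.45 (0.91 to 2.03). In other amacrine nuclei the ratio was -0.28, and both intervals were clear of 0. The difference between the groups was not tested. Other amacrine nuclei sat mostly in cluster 27 in Cre- and in clusters 12 and 24 in Tet tcKO, and the part of this in the second value was not tested.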

How the results depend on the processing

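No paired analysis was possible because each genotype was 1 library. The count of genes 2-fold or more higher, 142, and lower, 186, moved with the depth of genes admitted, to 347 and 437 of 4072 at a mean of 50 CPM, 56 and 72 of 834 at 200 CPM, and 1330 and 1116 of 9077 with no minimum. Thinning to 500 UMIs, which leaves fewer counts per gene, gave 260 and 357. Median-of-ratios scaling gave 162 and 172, and nuclei with a UMI of Chat or Slc5a7, chosen after seeing the data, gave 166 and 234. The median log2 ratio of the 5 cholinergic genes with a ratio, 0.76, kept its direction throughout (0.56 to 0.95). Over the 3 that averaged 100 CPM or more it was 0.31, and the intervals of Chat and Prima1 included 0. The median of the 5 markers over other amacrine nuclei, 4.97 in Cre- and 5.49 in Tet tcKO, was 3.91 and 3.93 when a nucleus counted once for a gene, 3.04 and 4.90 with clusters weighted equally, and 6.09 in Tet tcKO after thinning, and the cause was not tested. The share of starburst nuclei, 17.9% and 11.7% of amacrine nuclei, was 3.83% and 3.45% of nuclei neither rod nor cone. Amacrine nuclei of any cluster with a thinned UMI of Chat or Slc5a7 made up 4.22% and 4.41% of amacrine nuclei, a value that depends on detection. The 24 genes at the extremes were chosen by their ratios, and the alternatives used the same UMIs, which favors a kept direction. Of 192 values for these genes under alternatives, 0 changed direction, 11 moved beyond the counting interval and 189 remained 2-fold or more. The exceptions, Trhde at 0.82, Fbn2 at 0.82 and Arhgap18 at 0.56, followed thinning, where few counts remain. Ptprt ranged from 2.92 to 5.26 and Cntnap5a from 2.74 to 5.02, lowest when counted once per nucleus, and Pcdh17, with 1 UMI in Cre-, from 1.65 after thinning to 6.52. With 1 library per genotype, variation between animals is not measured.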

Other observations

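The clustered gamma protocadherins, cell-surface proteins through which a starburst cell tells its own dendrites from those of its neighbours, were too sparse to compare by gene. Of 21 members measured, 19 had a UMI in starburst nuclei and 1 averaged 100 CPM or more, Pcdhga12, with 17 UMIs in Cre- and 16 in Tet tcKO and a log2 ratio of -1.24 (-2.32 to -0.17). Their summed level was 576 and 341 CPM in starburst nuclei and 463 and 348 CPM in other amacrine nuclei. The members share their last exons, so counts of single members are uncertain.

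The genes that were higher in Tet tcKO starburst nuclei were longer than those that were lower. The 142 higher genes had a median gene length of 204 kb and the 186 lower genes 53.6 kb, against 104 kb for all tested genes. In length ranges chosen after the values were seen, the median log2 ratio in starburst nuclei was -0.36 for 539 genes under 50 kb, -0.15 from 50 to 100 kb, 0.02 from 100 to 200 kb, 0.17 from 200 to 500 kb and 0.31 for 178 genes of 500 kb or more. Other amacrine nuclei gave -0.24, -0.02, 0.01, 0.12 and 0.34 over the same ranges. Share by share, 18.0% of the genes in the longest range were 2-fold or more higher in starburst nuclei and 2.25% were lower, whereas 2.60% of those in the shortest range were higher and 16.3% lower. Ptprt and Cntnap5a, at 1139 and 903 kb, are among the longest genes named, and Gabrd spans 13.5 kb. Slc44a5 at 300 kb and Pcdh17 at 95.5 kb had ratios above 3 as well. The part of length in single ratios and in the medians of gene lists was not tested.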
